A study of Mus musculus with 8 samples.

Results

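Ubiquitin is a small protein that is attached to other proteins and marks many of them for destruction by the proteasome. An E1 enzyme activates ubiquitin, an E2 carries it and an E3 ligase chooses the protein that receives it, while deubiquitinases take it off again. Mammals make ubiquitin as precursors that are cut into single ubiquitins. Ubb encodes a chain of ubiquitin units and is induced in stress, whereas Rps27a encodes ubiquitin joined to a ribosomal protein.

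The genes described here were Ubb, the ubiquitin E1 enzymes Uba1 and Uba6, and Usp14 and Uchl5, which are deubiquitinases bound to the regulatory particle of the proteasome. They were taken by symbol, 5 genes of 28239 in the table, and so hold 1 ubiquitin-coding gene, 2 E1 enzymes and 2 deubiquitinases. The genes were chosen by a search that already knew how they differed between the genotypes in these libraries. Their differences between genotypes are therefore given as a description, with errors and no p-values, and where a call of a member is mentioned, nothing is read from it.

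The libraries came from regulatory T cells (Tregs), made from naive CD4+ T cells of mouse spleens, with the strain background given as C57BL/6 for both groups. Cells of 4 Alox15-/- and 4 wild-type (WT) mice, 10 to 12 weeks old, spent 2 days in culture with TGF-β at 5 ng/ml, IL-2 at 100 U/ml and beads against CD3 and CD28, 1 per cell. The study used animals of either sex, both groups received the same agents, and the only difference in the labels is the Alox15 genotype. According to the methods, C57/Black6 mice came from Charles River and Alox15-deficient mice from The Jackson Laboratory, so genotype and supplier cannot be told apart here. Alox15 encodes a lipoxygenase that makes lipid mediators from polyunsaturated fatty acids. RNA was profiled by MACE-seq, which reads each transcript near its 3′ end. A library labelled Alox15-/- held 3723151 to 6952596 counts in total, and a library labelled WT 4810125 to 9538962. Values below are CPM, the counts of a gene as a part of its library's counts over genes that passed the filter on low values. They were scaled to the usual round total and by the TMM method, and are given with the SD over 4 libraries. Every direction is that of the labels.

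The targeted gene went against its label. Where the label was Alox15-/-, Alox15 stood at 67.2 ± 3.18 CPM, and where it was WT, at 5.31 ± 3.61 CPM (SD, n = 4 each). A 3′ count can come from outside a deleted part, and the deleted part was not analysed here, so this value checks neither label. Summed Treg and T cell markers overlapped between the groups, at 3200 to 3400 CPM in the libraries labelled Alox15-/- and 3270 to 3540 CPM in those labelled WT, and 0 of the 10 were called. Foxp3, which defines Tregs, ranged from 71.7 to 114 CPM and from 93.4 to 195 CPM in the same order. Of the markers of other cells, 5 of 7 erythroid, 5 of 8 myeloid, 6 of 8 NK and γδ T cell, 6 of 7 mast cell and basophil and 2 of 7 eosinophil genes were called higher in the libraries labelled Alox15-/-, and 1 of 6 B cell genes was called lower, beside 1.05% of all genes tested called higher and 0.197% lower. Some of these genes were so low in the libraries labelled WT that they can have passed the filter on low values only through the other group. The sum of 7 erythroid genes was 907 to 3490 CPM against 33.2 to 122 CPM, that of 8 myeloid genes 43.4 to 323 CPM against 8.88 to 15.2 CPM, and that of 8 NK and γδ T cell genes 90.9 to 172 CPM against 29.5 to 51.5 CPM. Mast cell and basophil genes summed to 135 to 343 CPM against 58.6 to 81.6 CPM, and eosinophil genes to 21.1 to 74.1 CPM against 1.25 to 10.4 CPM, where 2 of 7 were at 0 in every library labelled WT. B cell genes summed to 212 to 310 CPM against 207 to 302 CPM, and CD8 genes to 12.1 to 21.9 CPM against 21.5 to 31.8 CPM. The part of these cells in the values that follow was not tested, and in bulk RNA fewer cells of a type and less RNA per cell cannot be told apart.

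Ubb and its copies are nearly alike over the 3′ part of the transcript, the end near which MACE-seq reads, so their sequences are shown first. Where the counted reads fall was not analysed here. Mouse Ubb (ENSMUSG00000019505.7) lies on the plus strand at chr11:62551171-62553213 of GRCm38. Its 1499-base transcript holds 4 ubiquitin units of 76 codons head to tail, 1 further codon, and 153 bases after the coding part. The 4 units encode the same protein and differ from each other by 2 to 10 bases. A search of all annotated transcripts for at least 90% identity over at least 300 bases found, among others, Gm8797 and Gm1821. Gm8797 (ENSMUSG00000103034.1, chr3:5750806-5751295, plus strand) is annotated as protein coding and is a 490-base gene without introns that holds 1 unit. Gm1821 (ENSMUSG00000044285.8, chr14:46084028-46085000, plus strand) is annotated as a transcribed processed pseudogene. The lines that follow give the last unit of Ubb with the 1 codon after it, and the stretch of each copy that aligns with it, all read from coding or pseudogene exons of GRCm38. Capitals mark bases that differ from Ubb. The stretches are chr11:62552830-62553060 (plus strand, 231 bases) for Ubb, chr3:5750904-5751134 (plus strand) for Gm8797 and chr14:46084582-46084812 (plus strand) for Gm1821.
Ubb: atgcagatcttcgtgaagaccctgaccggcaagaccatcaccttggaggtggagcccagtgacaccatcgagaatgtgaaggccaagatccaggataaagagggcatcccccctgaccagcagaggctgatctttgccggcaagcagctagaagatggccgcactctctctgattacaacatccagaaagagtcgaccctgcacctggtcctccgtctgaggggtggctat
Gm8797: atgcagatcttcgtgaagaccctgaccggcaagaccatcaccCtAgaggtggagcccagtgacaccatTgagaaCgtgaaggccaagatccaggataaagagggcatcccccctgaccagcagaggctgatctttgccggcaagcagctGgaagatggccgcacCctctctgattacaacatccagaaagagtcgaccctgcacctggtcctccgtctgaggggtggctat
Gm1821: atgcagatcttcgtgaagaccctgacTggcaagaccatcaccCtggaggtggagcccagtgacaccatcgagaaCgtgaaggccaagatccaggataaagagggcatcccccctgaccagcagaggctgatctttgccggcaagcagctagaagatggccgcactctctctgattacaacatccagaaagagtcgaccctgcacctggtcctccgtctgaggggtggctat

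Counted from 1 at the first base shown for Ubb, Gm8797 differed at 6 positions: T43C, G45A, C69T, T75C, A150G and T165C. Gm1821 differed at 3 positions, C27T, T43C and T75C. Each of these changes kept the amino acid of its codon. After the coding part, Gm8797 and Gm1821 each matched the 153 bases of Ubb with 0 substitutions and 1 gap base. From the start of the last unit, identity to Ubb was 98.2% for Gm8797 and 99.0% for Gm1821. The longest run without a difference was 180 bases for Gm8797 and 270 bases for Gm1821. A read inside such a run fits both genes equally well. The read length, and what was done with reads that fit several places, are not given in the sources used here, so the split of reads between Ubb, Gm8797 and Gm1821 is uncertain.

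As deposited, Ubb was the member whose groups stood farthest apart. It measured 614.4, 567.5, 586.3 and 587.8 CPM in the libraries labelled Alox15-/- 1 to 4, and 892.8, 970.1, 851.4 and 928.0 CPM in those labelled WT 1 to 4. Every library labelled Alox15-/- was below every library labelled WT, and the spread within each group was small, with a coefficient of variation of 3.27% and 5.55%. The group means were 589 ± 19.3 CPM and 910.6 ± 50.6 CPM (SD, n = 4 each), a difference of -35.3%. The log2 fold change of the edgeR fit was -0.63 (SE 0.087, 95% interval -0.81 to -0.44), from 2091 to 8441 counts per library.

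Of the 5 members, 5 passed the filter on low values and 1, Ubb, was called at an adjusted p under 0.05 by edgeR's quasi-likelihood test, in the lower direction. Ubb was not called when the counts of Gm8797, or of Gm8797 and Gm1821, were added to it. Of the 12700 genes tested, 1.24% were called in either direction, 0.197% lower and 1.05% higher in the libraries labelled Alox15-/-. The groups did not overlap for 2 members, Ubb and Uba1, against 5.25% of all genes tested. The members were chosen on this comparison, so nothing is read from these counts. The median log2 fold change of all genes tested was -0.0075.

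**Figure D1:**
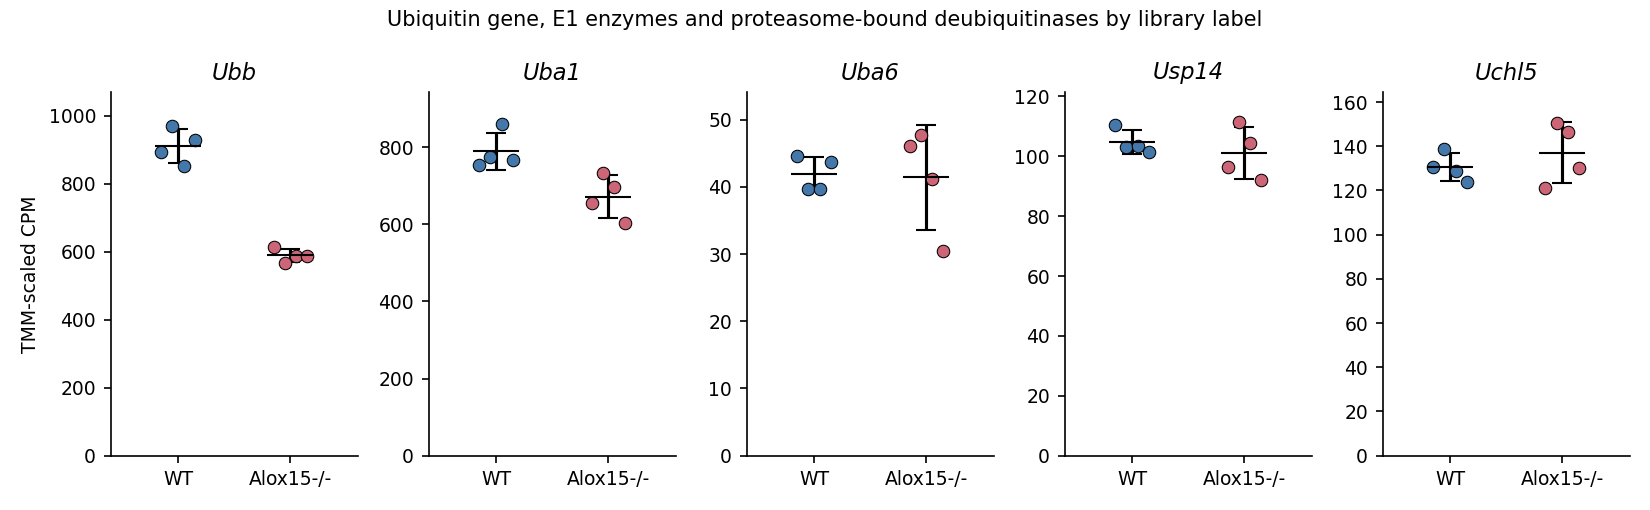
TMM-scaled CPM (vertical axes, each from 0) of Ubb, Uba1, Uba6, Usp14 and Uchl5 in the 4 libraries labelled WT and the 4 labelled Alox15-/-; points are libraries, the long bar is the mean and the whiskers are 1 SD. Ubb lies at 567.5 to 614.4 CPM in the libraries labelled Alox15-/- and at 851.4 to 970.1 CPM in those labelled WT, Uba1 is lower in each library labelled Alox15-/-, and the groups of the other genes overlap.

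The copy Gm8797 moved the other way. It measured 498.0, 464.1, 494.0 and 519.9 CPM in the libraries labelled Alox15-/- 1 to 4, and 325.0, 326.6, 314.0 and 346.7 CPM in those labelled WT 1 to 4. Every library labelled Alox15-/- was above every library labelled WT, so that Gm8797 and Ubb separated the groups in opposite directions. The means were 494.0 ± 23.0 CPM and 328.1 ± 13.6 CPM (SD, n = 4 each), a log2 fold change of 0.59 (SE 0.087, edgeR adjusted p = 0.00136). The difference of Gm8797 was 165.9 CPM, and that of Ubb was -321.6 CPM. Gm8797 was found by the sequence match and not by its values, but its counts may hold reads of Ubb and the reverse, so the pair is not a set of independent measurements.

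Gm1821, closer to Ubb in sequence than Gm8797, measured 324.2, 291.8, 289.0 and 316.2 CPM in the libraries labelled Alox15-/- and 312.6, 333.9, 269.8 and 279.8 CPM in those labelled WT. The groups overlapped, with a log2 fold change of 0.03 (SE 0.098, 95% interval -0.18 to 0.24, edgeR adjusted p = 0.97). Since it has Ubb in its total, the share of Gm1821 in the reads of both restates the Ubb difference. That share was 34.1 ± 0.848% in the libraries labelled Alox15-/- and 24.7 ± 1.31% in those labelled WT (SD, n = 4 each).

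The share of Gm8797 in the reads of Ubb and Gm8797 was 44.77, 44.99, 45.73 and 46.94% in the libraries labelled Alox15-/- 1 to 4, and 26.69, 25.19, 26.94 and 27.2% in those labelled WT 1 to 4. The groups were 45.6 ± 0.977% and 26.5 ± 0.903% (SD, n = 4 each). The total holds Ubb, so this share is a description and partly restates the difference on which Ubb was chosen.

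Added together, the reads of Ubb and Gm8797 differed less than those of Ubb alone. The sum was 1112, 1032, 1080 and 1108 CPM in the libraries labelled Alox15-/- and 1218, 1297, 1165 and 1275 CPM in those labelled WT. The groups still did not overlap, at 1083 ± 37.1 and 1239 ± 59.1 CPM (SD, n = 4 each), a difference of -12.6%. Refitted as 1 gene, Ubb with Gm8797 had a log2 fold change of -0.19 (SE 0.087). With Gm1821 added as well, the groups overlapped, at 1323 to 1437 CPM and 1435 to 1631 CPM, and the log2 fold change was -0.14. Whether reads moved between Ubb and its copies was not tested, because the reads themselves were not analysed here.

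**Figure D2:**
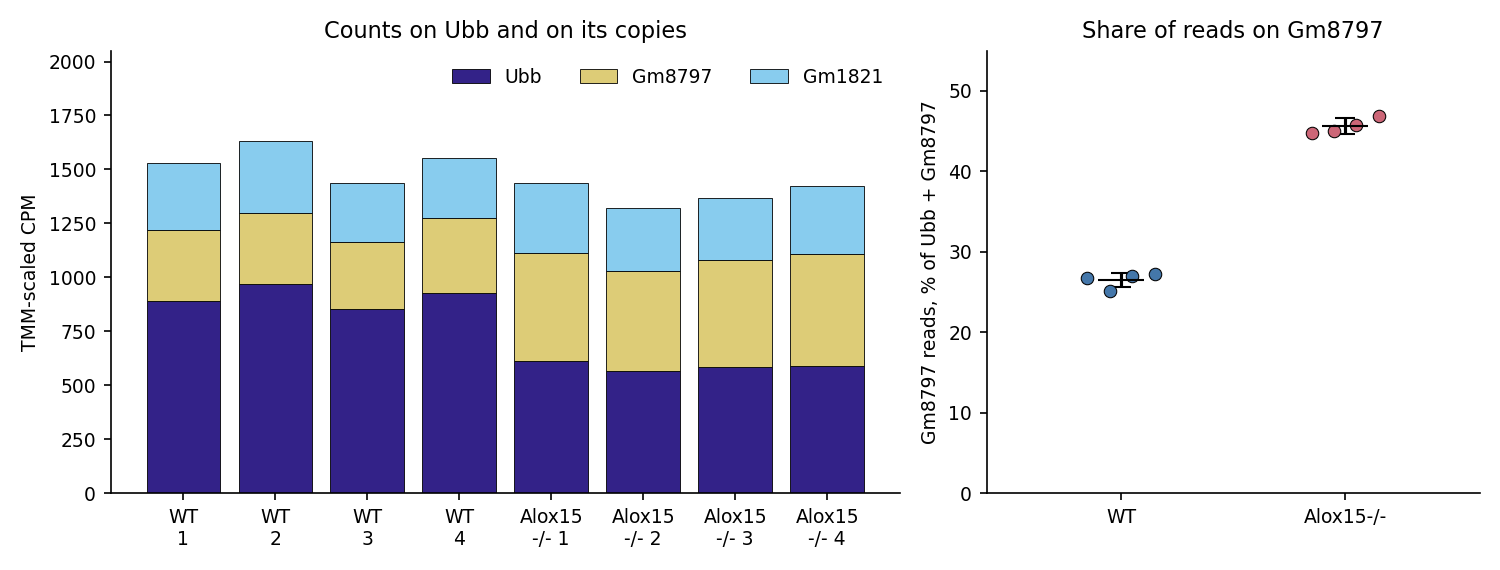
Left, stacked TMM-scaled CPM of Ubb, Gm8797 and Gm1821 in each of the 8 libraries, from 0; right, the Gm8797 reads as a percentage of Ubb and Gm8797 reads, with points for libraries, the mean and 1 SD. The Ubb part is shorter and the Gm8797 part taller in each library labelled Alox15-/-, the stack of all 3 spans 1323 to 1437 CPM against 1435 to 1631 CPM, and the Gm8797 share is 44.77 to 46.94% against 25.19 to 27.2%.

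Rps27a, which also encodes ubiquitin, was compared with a test, since it was not among the members. Rps27a (ENSMUSG00000020460.15, chr11:29545846-29548109, minus strand) measured 538.6, 579.2, 697.1 and 613.9 CPM in the libraries labelled Alox15-/- and 636.2, 648.8, 507.9 and 570.8 CPM in those labelled WT. The groups overlapped, at 607.2 ± 67.4 and 591.0 ± 65.0 CPM (SD, n = 4 each), with a log2 fold change of 0.04 (SE 0.108, 95% interval -0.19 to 0.27, edgeR adjusted p = 0.964).

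Rps27a has processed copies of its own. The sequence search found 13, of which 10 were in the table, and the 2 given here were picked from these after their values were seen. Gm8430 was at 756.5 ± 64.1 and 750.9 ± 106 CPM, and Rps27a-ps2 at 386.6 ± 35.4 and 387.1 ± 51.2 CPM (SD, n = 4 each). Neither separated the groups, with log2 fold changes of 0.01 (edgeR adjusted p = 0.992) and -0.0011 (edgeR adjusted p = 0.998). Rps27a with its 10 copies was at 2055 ± 200 and 2034 ± 251 CPM (exact two-sided permutation test, p = 0.886, where the smallest p possible is 0.0286).

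Uba1 and Uba6 are the E1 enzymes that activate ubiquitin, and Uba6 also activates the ubiquitin-like protein FAT10. Uba1 (ENSMUSG00000001924.15, chrX:20658326-20683179, plus strand) measured 655.6, 732.8, 696.9 and 602.8 CPM in the libraries labelled Alox15-/- 1 to 4, and 754.3, 774.2, 860.3 and 767.5 CPM in those labelled WT 1 to 4. The highest library labelled Alox15-/- lay just below the lowest labelled WT, so the groups did not overlap but nearly met. The means were 672.0 ± 55.9 and 789.1 ± 48.2 CPM (SD, n = 4 each), a difference of -14.8%, and the log2 fold change was -0.23 (SE 0.094, 95% interval -0.43 to -0.03). The gene is on the X chromosome, and Xist, the RNA of the inactive X of female cells, was at 42.4 to 67.8 CPM in the libraries labelled Alox15-/- and 33.5 to 56.4 CPM in those labelled WT. Of the Y-linked genes, Ddx3y was at 45.6 to 58.4 and 37.8 to 62.3 CPM in the same order and Uty at 1.21 to 3.4 and 0.839 to 2.08 CPM, while Kdm5d and Eif2s3y stayed below 1 CPM in all 8 libraries. The part of sex in the Uba1 values was not tested.

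Uba6 (ENSMUSG00000035898.13, chr5:86109287-86172803, minus strand) rested on 176 to 394 counts per library. It measured 46.11, 47.77, 41.23 and 30.5 CPM in the libraries labelled Alox15-/- and 44.53, 39.72, 39.74 and 43.65 CPM in those labelled WT. The libraries labelled Alox15-/- held both the highest values and the lowest, and the 4 labelled WT fell between them. The log2 fold change was -0.03 (SE 0.138, 95% interval -0.32 to 0.27). Without the fourth library labelled Alox15-/- it was 0.10, and without the first labelled WT 0.0043, so that its sign rests on single libraries. The ratio of Uba6 to Uba1 was 0.0613 ± 0.00848 and 0.0534 ± 0.00578 (SD, n = 4 each), with overlap.

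Usp14 trims ubiquitin chains from proteins held at the proteasome, and Uchl5 does so as a partner of the receptor Adrm1. Usp14 (ENSMUSG00000047879.17, chr18:9993066-10045119, minus strand) measured 96.56, 111.5, 104.4 and 91.93 CPM in the libraries labelled Alox15-/- and 110.5, 103.2, 103.4 and 101.4 CPM in those labelled WT. The 4 libraries labelled WT lay within the range of the others, and the log2 fold change was -0.05 (SE 0.098, 95% interval -0.26 to 0.16). As spans, the 3′ end of Usp14 overlaps that of Thoc1, a gene of mRNA export on the opposite strand (chr18:9957906-9995489). The longest match of their transcripts ended 255 bases before the 3′ end of Usp14. It is not given in the sources used here whether the counting used strand. Thoc1 was at 57.1 ± 5.70 and 68.5 ± 3.28 CPM (SD, n = 4 each), a log2 fold change of -0.27 (SE 0.105, edgeR adjusted p = 0.516). The groups of Thoc1 did not overlap, which held for 5.25% of all genes tested. Usp14 and Thoc1 together were at 158.2 ± 13.3 and 173.1 ± 2.87 CPM, and the groups overlapped.

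Uchl5 (ENSMUSG00000018189.12, chr1:143777272-143807466, plus strand) measured 121.2, 150.6, 146.4 and 130.3 CPM in the libraries labelled Alox15-/- and 130.6, 138.9, 128.6 and 123.8 CPM in those labelled WT. It was the only member with a positive log2 fold change, 0.07 (SE 0.10, 95% interval -0.14 to 0.28), and its groups overlapped. The ratio of Uchl5 to Usp14 was 1.356 ± 0.0735 in the libraries labelled Alox15-/- and 1.248 ± 0.0702 in those labelled WT (SD, n = 4 each), also with overlap. The annotated genes Gm25663 and Gm29170 overlap the span of Uchl5 on the same strand. Whether they share exons or reads with Uchl5 was not analysed here.

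The wider pathway was described with 8 lists of 127 genes, members included, of which 126 were in the table and 119 were tested. The log2 fold change was above 0 for 47 and below 0 for 72, with a median of -0.03. Besides Ubb, 1 of them was called, which sets 1 of 114 genes without the members beside the 1.24% of all genes tested. That gene was Ube2l6, the E2 enzyme of the ubiquitin-like protein ISG15, which rose from 2.83 ± 0.422 to 7.26 ± 2.29 CPM (SD, n = 4 each), a log2 fold change of 1.33 (SE 0.287, edgeR adjusted p = 0.03). Its call was lost in 6 of 8 fits that left out a library, all but those without the fourth library of either label. The groups did not overlap for 5 of the 114 genes, Ubqln1, Ube2e3, Ube2j1, Ube2l6 and Usp5, beside 5.25% of all genes tested.

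By role, the E1 enzymes of ubiquitin-like proteins ran from Nae1 (-0.19), which works for NEDD8, to Mocs3 (0.02), which works for URM1, on the log2 scale, and 0 of 6 tested were called. Receptors, shuttles and deubiquitinases of the proteasome ran from the shuttle Ubqln1 (-0.23) to Uchl5 (0.07), with a median of -0.01 over 13 genes and 0 called. Adrm1, the receptor that holds Uchl5, was at 74.6 ± 4.12 and 75.3 ± 11.7 CPM, and Psmd14, the deubiquitinase of the proteasome lid, at 163 ± 13.8 and 164 ± 22.2 CPM (SD, n = 4 each). Both pairs overlapped. Of 32 E2 enzymes tested, 14 were above 0 and 18 below, with Ube2e2 lowest at -0.45 and Ube2l6 the 1 called. Of 44 other deubiquitinases, 17 were above 0 and 27 below, from Tnfaip3 (-0.42), which restrains NF-kB signalling, to Uchl1 (0.93), and 0 were called. Uchl1 was low, at 5.33 ± 1.89 and 2.74 ± 0.908 CPM (SD, n = 4 each), and its groups overlapped. Usp5, which recycles free ubiquitin chains, had a log2 fold change of -0.26 (SE 0.10, edgeR adjusted p = 0.505). Of 9 tested E3 ligases and adaptors of T cells, 7 were above 0 and 2 below, from Traf6 (-0.16) to Nedd4 (0.61), with a median of 0.09 and 0 called. Of 11 tested heat shock and stress genes, 2 were above 0 and 9 below, from the stress regulator Hsf1 (-0.19) to the co-chaperone Bag3 (0.19), and 0 were called. Hspa8, the constitutive heat shock protein of the HSP70 family, was at 1920 ± 285 and 2110 ± 174 CPM (SD, n = 4 each). At an unadjusted p under 0.05 there were 9 of the 114 non-member genes, and 996 of all 12700 genes tested.

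**Figure D3:**
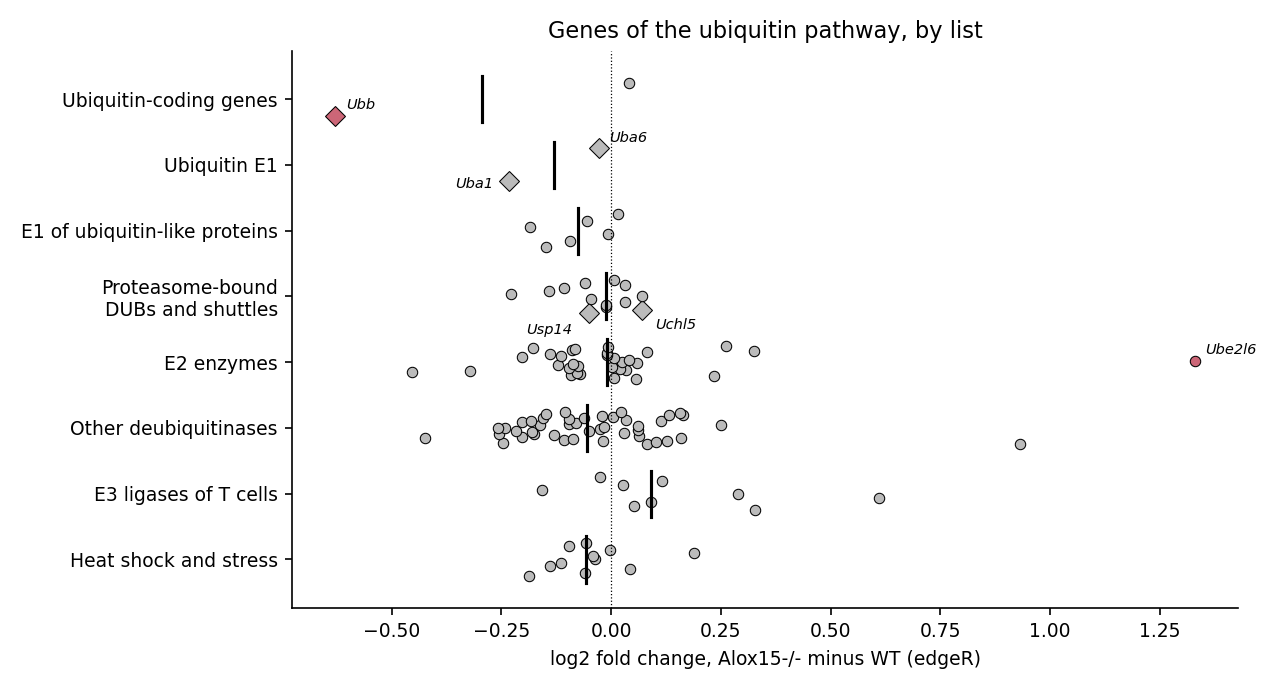
log2 fold change of the libraries labelled Alox15-/- against those labelled WT (horizontal axis, edgeR fit) for the 119 tested genes of 8 lists, 1 row a list; diamonds are the members, circles other genes, black bars the list medians and red marks genes called. Most genes lie near 0, with Ubb at -0.63 and Ube2l6 at 1.33 as the called ones.

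Ubb lies 7.8 Mb from the targeted gene Alox15 on chromosome 11, so the genes around it were examined too. Within 1 Mb of the start of Ubb, 22 other genes were tested, of which 13 had a log2 fold change above 0 and 9 below, with a median of 0.12. Called were 2 of them (9.09%), both higher in the libraries labelled Alox15-/-, beside 1.24% of all genes tested called in either direction and 1.05% higher. Zswim7, a factor of homologous recombination that starts 270 kb before Ubb, was at 19.5 ± 2.33 against 11.7 ± 2.30 CPM (SD, n = 4 each), a log2 fold change of 0.77 (SE 0.175, edgeR adjusted p = 0.0441). Trim16, an E3 ligase that starts 269 kb after Ubb, was at 4.92 ± 1.12 against 1.30 ± 0.989 CPM (SD, n = 4 each), a log2 fold change of 1.98 (SE 0.395, edgeR adjusted p = 0.0179). Trim16 reached 2 CPM in 4 libraries labelled Alox15-/- and in 1 labelled WT, so it passed the filter on low values through the group in which it was higher, and its call is no support for the count above. The nearest tested genes on either side were Cenpv and Trpv2, with log2 fold changes of 0.56 (SE 0.26, edgeR adjusted p = 0.637) and -0.15 (SE 0.162, edgeR adjusted p = 0.871).

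**Figure D4:**
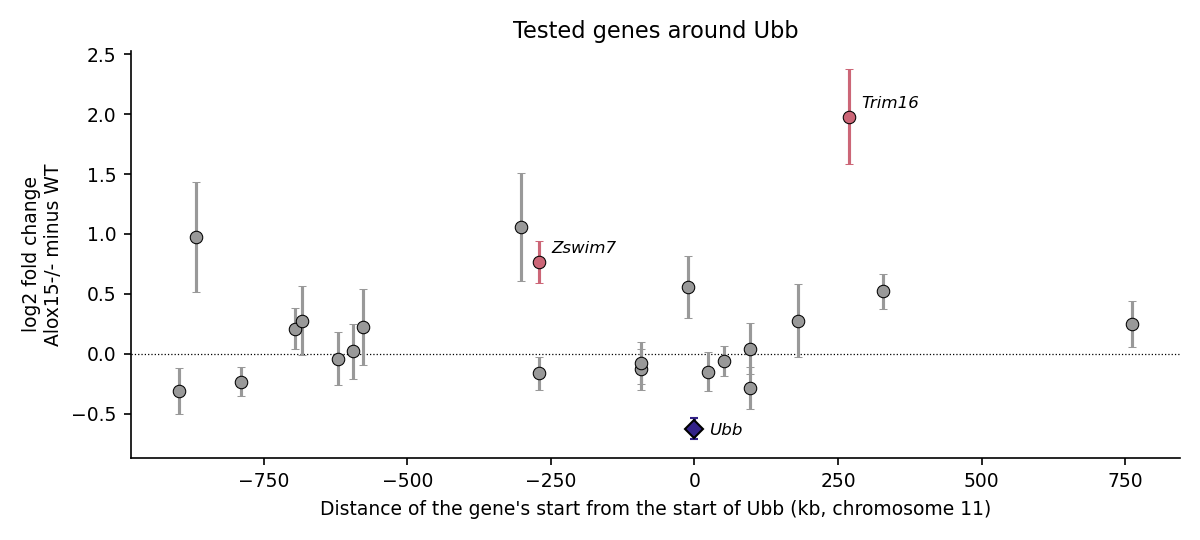
log2 fold change with 1 SE (vertical axis, edgeR fit) of Ubb and the 22 tested genes that start within 1 Mb of it on chromosome 11, against the distance of their starts from that of Ubb in kb; red marks called genes. Ubb is at -0.63, Zswim7 at 0.77 and Trim16 at 1.98, and the genes next to Ubb lie between -0.15 and 0.56.

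The genes whose levels followed Ubb most closely over the 8 libraries were listed by the root mean square difference of log2(CPM + 0.5), each centred on its own mean. Ide, the insulin-degrading enzyme, came first with a difference of 0.086, followed by Ankrd27 (0.095), Ift122 (0.108), Gm10020 (0.108) and Hic2 (0.11). Ide was at 70.3 ± 4.58 CPM in the libraries labelled Alox15-/- and 111 ± 7.70 CPM in those labelled WT (SD, n = 4 each), a log2 fold change of -0.66 (SE 0.0999). The log2 fold changes of the others were -0.57 for Ankrd27, -0.59 for Ift122, -0.54 for Gm10020 and -0.65 for Hic2. Hic2 was below 2 CPM in each library labelled Alox15-/- and passed the filter on low values through those labelled WT. These genes were chosen for their likeness to Ubb, so no test of their difference is given. The list describes likeness over libraries that already differ by label and says nothing of shared control.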

How the data were processed

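RNA of Tregs on day 2 was measured in 4 libraries labelled Alox15-/- and 4 labelled WT. The deposited table holds raw counts of the authors for each gene symbol, not normalized, and the submitters' processing notes name Bowtie, edgeR and the build GRCm38. The methods name a MACE-seq kit, whereas the labels name a small RNA kit of the same company. The read length, the counting tool, and the handling of strand and of duplicates are not given in the sources used here. The labels do not tie a library to a mouse, so p-values measure the spread between these libraries.

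The filter kept the 12700 of 28239 genes that reached 2 CPM in 4 or more libraries. Libraries were scaled by TMM and compared with edgeR 4.0.16 in R 4.3.3 (glmQLFit and glmQLFTest, not robust, two-sided), with Benjamini–Hochberg adjustment over all genes tested and a threshold of 0.05. These choices followed the study's methods where they state them. The biological coefficient of variation was 14.5%. A called gene is one past this threshold, and the standard error is the size of the log2 fold change divided by the square root of F. The sum of Rps27a and its copies was compared with an exact two-sided permutation test in scipy 1.17.1. A planned sum over further ubiquitin-coding genes, and some genes of the lists, are not reported here. Ube2b and Ahsp of the lists were not analysed here.

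Positions and transcripts were those of GENCODE M21 for GRCm38, where 97% of tested symbols had a match to 1 gene. Copies were found with blastn 2.17.0. The genes named are the members, Alox15, Rps27a, the copies, called genes and the extremes of each list, called genes within 1 Mb of Ubb, and the 5 genes nearest to its pattern. Any other gene in the text was picked with its values in view. The members and lists were chosen with earlier results of these data known. Tested on simulated data of 12551 genes, the fit called 182 of the 200 that had been given a log2 change of 1 (91%), and 11 others. The changed genes were drawn only from those above a limit of mean CPM. Smaller changes and lower genes were not simulated.

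Alternatives were DESeq2 size factors and upper quartile scaling, filterByExpr and no filter, DESeq2 1.42.0, limma-voom (limma 3.58.1), the robust edgeR fit, a replicate block, each library left out, and counts of copies added to the gene. Other tools were Python 3.11.15, pandas 2.3.3 and matplotlib 3.10.9.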

Additional observations from a re-analysis of the deposited data

How the results depend on the processing

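The log2 fold change of Ubb was -0.63 as reported and ran from -0.65 to -0.60 over the 8 fits that left out a library. It was -0.19 with the counts of Gm8797 added, and -0.14 with Gm8797 and Gm1821. The added counts of Gm8797 were themselves higher in the libraries labelled Alox15-/- (log2 fold change 0.59). Those of Gm1821 overlapped (0.03), so both sums were bound to differ less than Ubb alone. The sum with Gm8797 alone was added after seeing the data. Over the fits without a library, Uba1 ran from -0.27 to -0.18, Uba6 from -0.10 to 0.10, Usp14 from -0.0986 to -0.0058, Uchl5 from 0.03 to 0.13 and Gm8797 from 0.57 to 0.62. In all 16 alternatives Uba1, Usp14 and Uchl5 kept their sign, and Gm8797 kept its call. With no filter 388 genes were called in place of 158, and without a library 86 to 172. The count fell by more than 1.5 times without library 1 (95), 2 (86) or 3 (93) of those labelled Alox15-/- or library 2 of those labelled WT (105). Of the pathway genes 2 were called, 1 with limma-voom and 1 to 2 without a library, the lost call being Ube2l6, and the cause was not tested. Libraries of the same number did not deviate together (correlations 0.069, 0.17, -0.18 and -0.018), so the numbers were not taken to pair them. A replicate block gave 146 called genes and -0.63 for Ubb (-0.627), with 2 genes of the lists called, 1 higher and 1 lower. Among the members, Uba6 had the fewest counts, with 176 to 394 counts per library.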
